A study of Quercus suber with 11 samples.

Results

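The June innercork of cork oak (Quercus suber) was set against the April and July innercork together, locus by locus, to find transcripts with a trough or a peak in June alone. The measure was the June contrast, the mean of the June trees minus the average of the April and July means, on the log2 scale. It was computed for the 22426 loci, of 32024 in the deposited table, whose mean regularized log (rlog) value over all trees reached log2 of 10. Innercork, the young living phellem with the phellogen beside it, came from virgin cork of untreated trees growing in a forest, 3 in June, 4 in April and 4 in July. Each of the 11 trees was sampled once and gave 1 RNA-seq library. The months thus hold different trees, and a difference between months is also a difference between trees. The study names a single collection date per month, so a difference between months is a difference between days as well. Because the tissue was taken in bulk, fewer cells of a type and less RNA per cell cannot be told apart. Library depths cannot be read from rlog, which keeps no read totals, and were not used here, and rlog understates the differences of loci with few reads. Loci are called here by the name of the Arabidopsis gene that the table pairs with them.

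Cork is made by the phellogen, a meristem at the inner side of the cork whose outward daughter cells enlarge, coat their walls with suberin and die. The dividing cells need a cell cycle machinery, new histones and new ribosomes. Suberin is a polyester of fatty acids and glycerol with bound phenolics, and its monomers are built in the plastid, elongated and oxidized at the endoplasmic reticulum and exported by ABC transporters. Ribosomal proteins are each encoded in plants by several near-identical genes, and their transcripts are abundant where cells grow and divide.

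The June contrast called few loci. At the thresholds of the study (adjusted p up to 0.01, contrast above 1 in size), limma called 1 locus lower in June (0.00446% of the loci tested) and 0 higher (0%). At an adjusted p of at most 0.05 with no minimum, 29 loci were lower in June (0.129%) and 86 were higher (0.383%), 115 in all. Without the adjustment, 1683 loci (7.5%) were lower and 1936 (8.63%) higher at a p under 0.05. The balance of the 2 directions depended on the scaling, since quantile normalization gave 73 lower and 86 higher and centring each tree on its median gave 23 lower and 102 higher. In 25 of the 29 loci and 59 of the 86, all 3 June trees lay outside the range of the other 8 trees, and these are called June-only troughs and peaks here. Over all loci tested, the June trees lay below the other 8 in 392 (1.75%) and above them in 466 (2.08%). At the edge of the call, LOC112000980 had an adjusted p of 0.0496 with a contrast of 1.02, and LOC112017906, just outside, 0.0504 with 1.36.

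Most of these troughs and peaks leaned on April. All 84 June-only loci also passed the June/April comparison at an adjusted p of at most 0.05, as did 9.81% of all loci, but only 1 of them passed June/July, the single locus of all tested to do so (0.00446%). The study's own test, DESeq2 on read counts, called more loci for June/July at its stricter thresholds. The count given here thus holds only for limma on rlog. The comparisons share the June trees, and the June contrast uses all of them. The June-only troughs had a median difference of -1.13 from April and of -0.52 from July, and the peaks medians of 1.25 and 0.61. July lay between June and April in 25 of 25 troughs and 55 of 59 peaks. The July/April difference shares its trees and residual spread with the comparison that chose these loci, so its counts are a description. It was called lower in July in 17 of the 25 troughs (5.73% of all loci) and higher in July in 34 of the 59 peaks (6.31% of all loci).

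**Figure D1:**
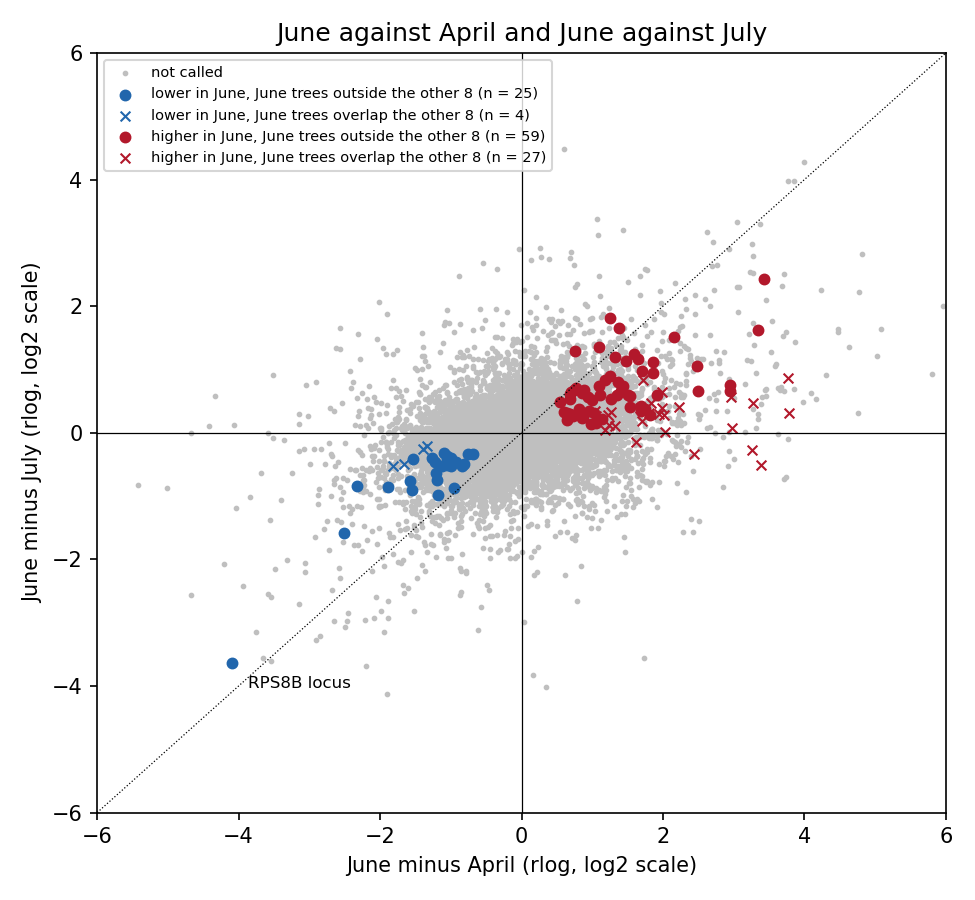
June minus April (horizontal axis) against June minus July (vertical axis), both as differences of month means of rlog on the log2 scale, for the 22426 loci tested. Coloured points are the 29 loci lower and the 86 higher in June at an adjusted p of at most 0.05, and most of them show a larger difference from April than from July. The dotted line marks equal differences, and the RPS8B locus lies near it, at -4.1 and -3.63.

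The locus that passed every threshold was LOC112022594, whose closest Arabidopsis gene, AT5G59240, encodes RPS8B, a protein of the small (40S) ribosomal subunit. Its rlog was 5.74, 6.94 and 5.61 in the June trees, against 10.72, 10.29, 9.97 and 9.8 in April and 9.73, 9.59, 9.75 and 9.84 in July. The June trees were thus all far below the other 8, while April and July differed by -0.47 with an adjusted p of 0.31. The month means were 6.09 ± 0.73 in June (SD, n = 3), 10.2 ± 0.4 in April and 9.73 ± 0.1 in July (n = 4 each), and the limma contrast was -3.87 (SE 0.28, adjusted p = 0.00109). It differed from April by -4.1 (adjusted p = 0.000505) and from July by -3.63 (adjusted p = 0.00658). Without June replicate 3 the contrast was -3.62 and the adjusted p 0.0121, above the study's threshold.

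The other RPS8B copies had far smaller contrasts. LOC112022593, the next locus by number, had 11.13, 11.33 and 11.38 in June, against 11.41 to 11.87 in April and 11.44 to 11.63 in July, with a contrast of -0.3 (SE 0.11, adjusted p = 0.236). LOC112039094 had a contrast of -0.38 (adjusted p = 0.182) and LOC111988287 one of -0.53 (adjusted p = 0.0862), and the June levels of both were at least 10.54. LOC112000701 stayed between 0.37 and 0.51 in every tree and was not tested. Near-identical copies can share or split reads, so the value of a single copy is uncertain.

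A further 11 loci of the ribosomal protein list fell in June at an adjusted p of at most 0.05. No member was called higher, against 0.383% of all loci. Together with LOC112022594 the 11 made 12 of the 221 members tested (5.43%, against 0.129% of all loci called lower). The count fell to 1 without any one June tree, to 2 without April replicate 1, April replicate 4 or July replicate 2, to 4 without April replicate 3 or July replicate 3, and to 1 or 0 with the replicate number as a block. The most even was RPL36B (LOC111992988), of the large (60S) subunit, at 8.67, 8.79 and 8.64 in June, 9.99, 9.91, 9.92 and 9.83 in April and 9.25, 9.4, 9.2 and 9.52 in July. Its months did not overlap, and its contrast was -0.93 (SE 0.1, adjusted p = 0.0128). RPS9C (LOC112032065), a small subunit protein, was at 9.44, 9.46 and 9.83 in June, 10.73, 11.22, 10.63 and 10.51 in April and 10.24, 10.3, 10.29 and 10.47 in July. The June trees of this locus were the lowest by the rule that chose it, and the contrast was -0.97 (SE 0.15, adjusted p = 0.041).

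RPL17B (LOC112011643), a large subunit protein, had 12.14, 12.1 and 12.31 in June, 12.95, 13.37, 12.99 and 12.79 in April and 12.81, 12.6, 12.73 and 12.71 in July. Its contrast was -0.68 (SE 0.12, adjusted p = 0.0435). The next loci, named after their values were seen, were RPL35A (LOC112010620, contrast -0.76), RPS28C (LOC111994075, -0.66), RPS16A (LOC112039529, -0.7), RPS11B (LOC112036398, -0.74), RPL7A (LOC112024755, -0.83) and RPL22B (LOC111995168, -0.71), all with the June trees below the other 8. In the last 2 called members, RPL40B (LOC111998093, contrast -1.17) and RPL36aB (LOC112028801, -0.82), the June and July ranges overlapped. The drop in June against July alone was not called for any of these 11.

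The list as a whole lay low in June. Its median contrast was -0.44, against -0.01 over all loci tested, and 197 of 221 members had a contrast below 0. In 119 members (53.8%, against 7.5% of all loci) the contrast was negative with an unadjusted p under 0.05, and in 2 (0.905%, against 8.63%) it was positive. In 62 members (28.1%, against 1.75%) the June trees lay below all others, and in 0 above them. The median differences were -0.5 from April and -0.38 from July. Small subunit proteins, with a median contrast of -0.4 over 87 loci, and large subunit proteins, with -0.46 over 134, were alike in this.

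Averaged over the list, each locus centred on its mean, the June trees stood at -0.48, -0.39 and -0.16, the April trees at 0.19, 0.5, 0.14 and 0.06 and the July trees at 0.04, -0.07, 0.02 and 0.16. The June range thus lay below the other months, with June replicate 3 nearest to them. The 3 members with the highest rlog, which is not corrected for gene length, were named whatever their contrast and had contrasts of -0.12 for RPL10A (LOC112005106, adjusted p = 0.751), -0.45 for RPL3B (LOC111998346, adjusted p = 0.162) and -0.27 for RPS27aB (LOC112034014, adjusted p = 0.476), all in limma. Reads of ribosomal RNA that remained in the values, 9 loci by RefSeq biotype, took 5.4 to 9.26% of the sum of linear values in June, 1.98 to 4.51% in April and 3.76 to 14.7% in July. Their part in the result was not tested.

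**Figure D2:**
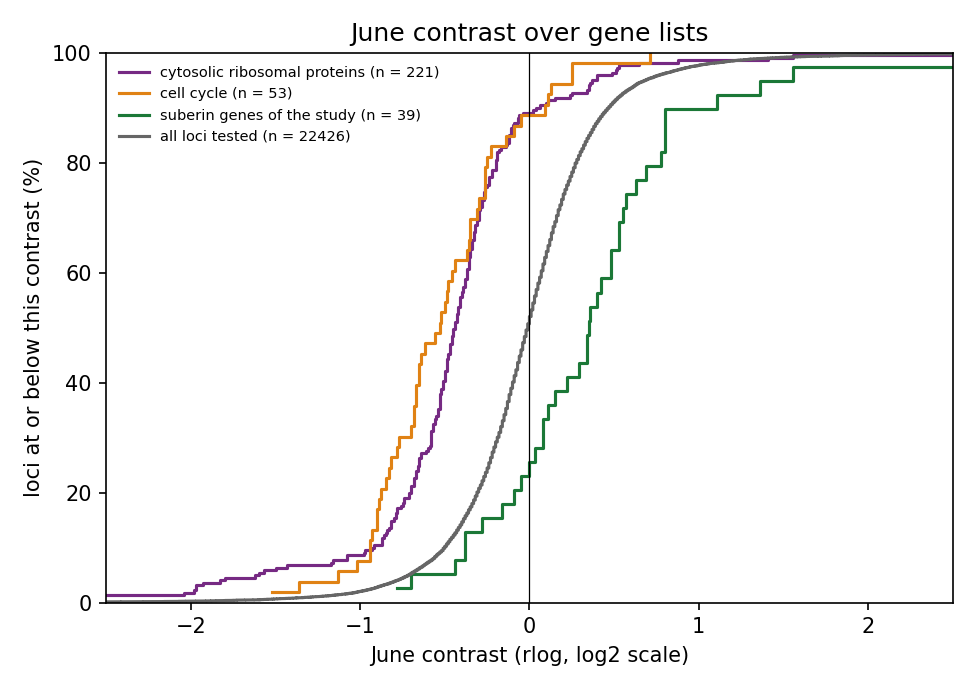
Cumulative share of loci (vertical axis, %) at or below a given June contrast (horizontal axis, rlog on the log2 scale) for the ribosomal protein list (n = 221), the cell cycle list (n = 53), the suberin genes of the study (n = 39) and all loci tested (n = 22426). The ribosomal protein and cell cycle curves sit left of all loci, with medians of -0.44 and -0.53, and the suberin curve to the right, with a median of 0.35.

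Among the other June-only troughs was ORC6 (LOC112001568), a subunit of the origin recognition complex that marks where DNA replication starts. It had 5.53, 5.61 and 5.43 in June, 6.4, 6.42, 6.54 and 6.57 in April and 6.26, 6.58, 6.25 and 6.54 in July. June lay below the other months by the rule that chose the locus, and April and July overlapped. Its contrast was -0.92 (SE 0.15, adjusted p = 0.0422), but June minus July, -0.88, was not called by limma (adjusted p = 0.256). SUVH5 (LOC112000998), a histone H3 lysine methyltransferase in Arabidopsis, was at 6.09, 6.83 and 7 in June, 9.26, 9.22, 8.72 and 8.67 in April and 7.39, 7.59, 7.57 and 7.36 in July. Here the months formed 3 steps, with a contrast of -1.59 (SE 0.22, adjusted p = 0.0261). RH16 (LOC111989580), a DEAD-box RNA helicase, had 7.46, 7.56 and 7.58 in June, 8.42 to 8.93 in April and 7.89 to 8.22 in July, with a contrast of -0.83 (SE 0.15, adjusted p = 0.0493). Named after its values were seen, the locus of the ribosome biogenesis factor BRX1-1 (LOC112004407) had a contrast of -0.85 (adjusted p = 0.035).

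The second largest trough belonged to GASA14 (LOC112020182), a small secreted protein of a gibberellin-regulated family, with 9.48, 10.89 and 10.64 in June, 12.76, 13.08, 12.67 and 12.85 in April and 12.26, 12.13, 11.81 and 11.51 in July. The June trees were spread, and all lay below the others by the rule that chose the locus. The contrast was -2.05 (SE 0.27, adjusted p = 0.0261). BGAL1 (LOC111985429), a beta-galactosidase, had 6.7, 6.61 and 6.17 in June, 7.91 to 8.81 in April and 6.93 to 7.95 in July, a contrast of -1.37 (SE 0.25, adjusted p = 0.0496).

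AT3G16850 (LOC112006075), of the pectin lyase-like family, had 5.9, 6.48 and 6.37 in June, 7.46 to 8.02 in April and 6.84 to 7.68 in July, a contrast of -1.22 (SE 0.22, adjusted p = 0.0493). PATL4 (LOC112035032), a patellin that binds membrane lipids, had 9.75, 10 and 9.83 in June, 11.16 to 11.69 in April and 10.19 to 11.15 in July, a contrast of -1.17 (SE 0.2, adjusted p = 0.0424). July overlapped April in BGAL1 and AT3G16850, and in PATL4 it fell just short of it. AT1G23100 (LOC112001019), a GroES-like protein, was at 7.31, 7.86 and 7.95 in June, 8.71 to 9.09 in April and 8.35 to 8.95 in July, with a contrast of -1.08 (SE 0.18, adjusted p = 0.0424).

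**Figure D3:**
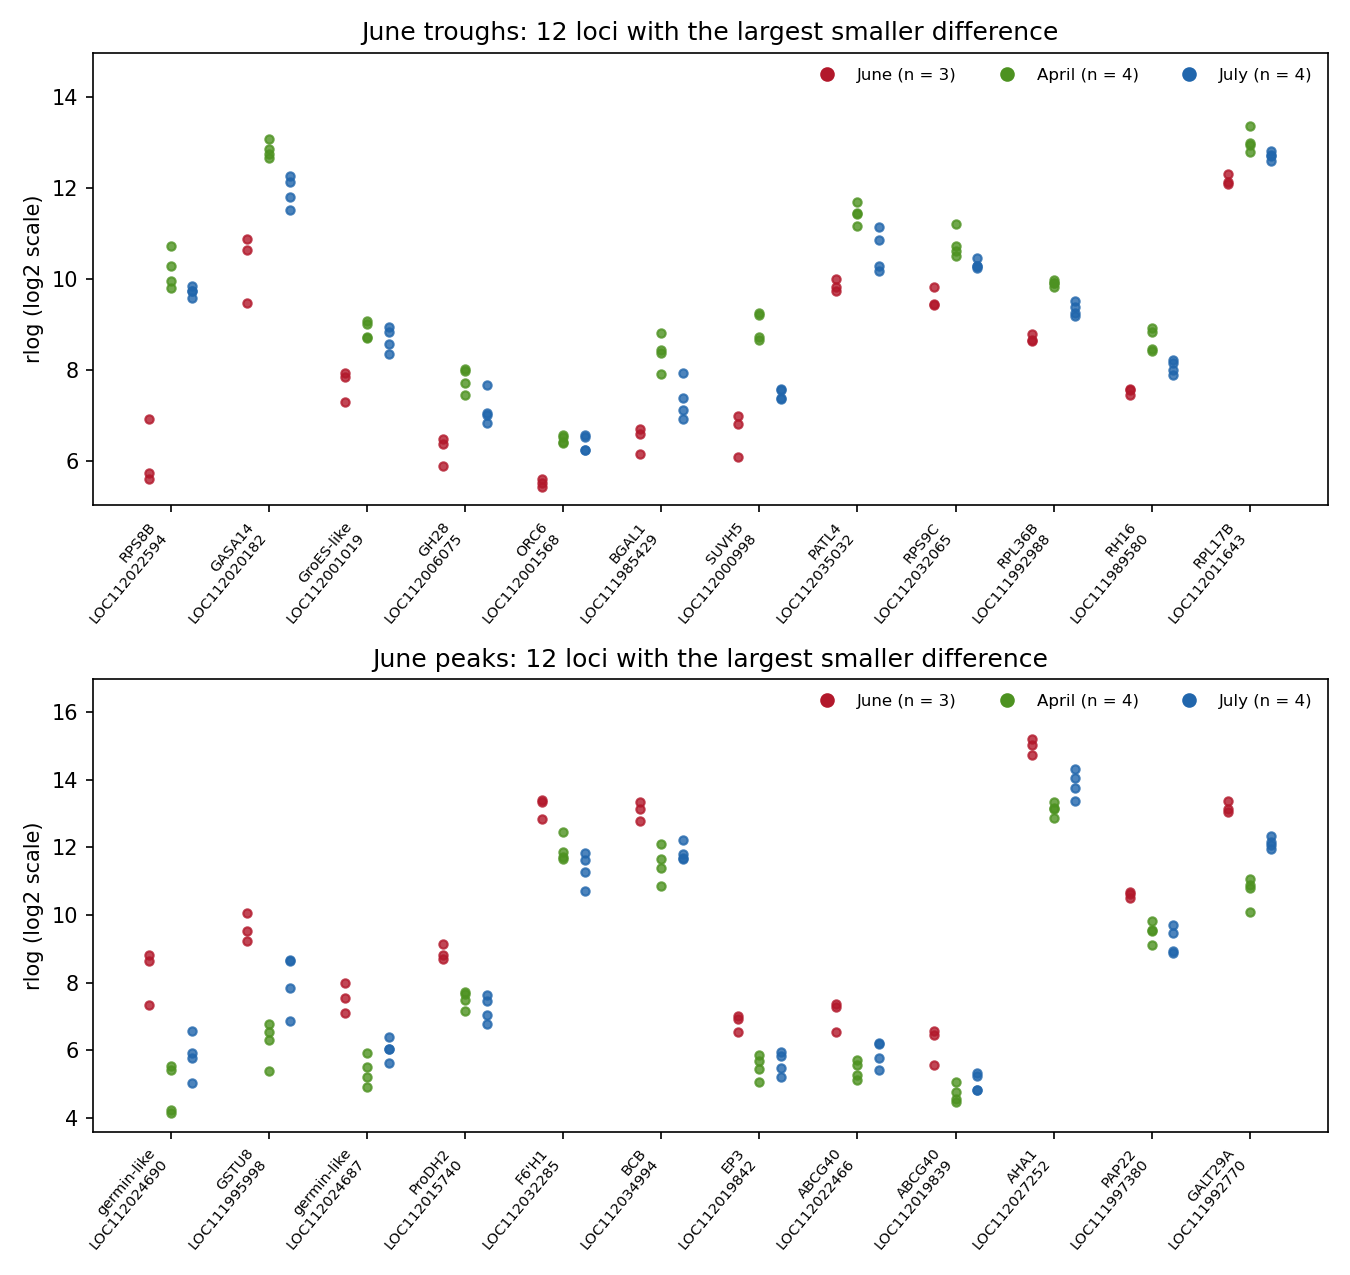
rlog (vertical axis, log2 scale) of each tree for the 12 June-only troughs (top) and the 12 June-only peaks (bottom) with the largest smaller difference, the smaller in size of June minus April and June minus July. Points are single trees, June left, April centre and July right within each locus, and the 3 June trees lie outside the other 8 in all 24 loci by the rule that chose them.

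The peak with the largest contrast was LOC112024690, a germin-like gene. Germin-like proteins are secreted cupins, many of them enzymes of the extracellular matrix in other plants. This locus had 7.33, 8.82 and 8.64 in June, 4.23, 5.53, 4.15 and 5.42 in April and 5.92, 5.78, 6.58 and 5.04 in July, a contrast of 2.93 (SE 0.45, adjusted p = 0.0386). A second copy, LOC112024687, had 7.1, 7.55 and 7.99 in June, 5.22, 5.91, 4.93 and 5.51 in April and 6.04, 6.04, 6.38 and 5.63 in July, a contrast of 1.84 (SE 0.26, adjusted p = 0.0334). In both, April and July overlapped. June minus July, 2.43 and 1.52, was not called by limma in either (adjusted p = 0.256 each). They match the same Arabidopsis gene, AT5G39110, and are neighbours in the gene order of Cork oak 2.0, so their reads may be shared.

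GSTU8 (LOC111995998), a glutathione transferase of the tau class, which conjugates reactive compounds, had 9.54, 10.07 and 9.24 in June, 5.4, 6.79, 6.32 and 6.55 in April and 8.66, 7.85, 6.86 and 8.63 in July. July was between the other months, and the contrast was 2.48 (SE 0.41, adjusted p = 0.0424). F6'H1 (LOC112032285), the feruloyl-CoA hydroxylase of coumarin synthesis in Arabidopsis, had 13.33, 12.83 and 13.39 in June, 11.67, 12.45, 11.88 and 11.72 in April and 11.85, 10.72, 11.26 and 11.64 in July. Here July was the lowest month by its mean, and the contrast was 1.53 (SE 0.25, adjusted p = 0.0423).

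BCB (LOC112034994), a blue copper-binding protein, had 13.15, 13.33 and 12.78 in June, 11.4, 11.65, 10.85 and 12.09 in April and 11.82, 11.65, 11.68 and 12.22 in July, a contrast of 1.41 (SE 0.24, adjusted p = 0.0424). The class IV chitinase EP3 (LOC112019842) had 7.01, 6.94 and 6.53 in June, 5.05 to 5.86 in April and 5.21 to 5.96 in July, a contrast of 1.26 (SE 0.23, adjusted p = 0.0493). In both, April and July overlapped. Another pair of neighbours matched ABCG40, an ABC transporter that takes up abscisic acid in Arabidopsis. LOC112022466 had 7.37, 7.29 and 6.54 in June, 5.12 to 5.7 in April and 5.43 to 6.22 in July (contrast 1.41, SE 0.25, adjusted p = 0.0455). LOC112019839 had 6.57, 6.46 and 5.57 in June, 4.47 to 5.05 in April and 4.83 to 5.33 in July (contrast 1.31, SE 0.24, adjusted p = 0.0496). In both copies June replicate 3 stood nearest to the other months.

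ProDH2 (LOC112015740), a proline dehydrogenase of the mitochondrion, had 8.82, 9.15 and 8.7 in June, 7.67, 7.16, 7.73 and 7.49 in April and 6.78, 7.64, 7.04 and 7.45 in July, a contrast of 1.52 (SE 0.21, adjusted p = 0.0295). AHA1 (LOC112027252), a plasma membrane proton ATPase, had 15.03, 15.22 and 14.74 in June, 13.13, 12.87, 13.18 and 13.35 in April and 14.32, 13.37, 14.04 and 13.77 in July, a contrast of 1.49 (SE 0.19, adjusted p = 0.0261). April and July overlapped in the first of these loci and stood apart in the second, if only just.

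PAP22 (LOC111997380), a purple acid phosphatase, had 10.62, 10.51 and 10.67 in June, 9.12 to 9.83 in April and 8.88 to 9.7 in July, a contrast of 1.22 (SE 0.2, adjusted p = 0.0423). GALT29A (LOC111992770), a galactosyltransferase of arabinogalactan side chains, had 13.05, 13.37 and 13.14 in June, 10.08, 10.89, 10.8 and 11.08 in April and 12.33, 12.08, 11.94 and 12.17 in July, a contrast of 1.77 (SE 0.19, adjusted p = 0.0128). Its months were 3 separate steps, with July nearer to June. Of the 59 peaks, the smaller of both differences exceeded 1 in 12, all of them described above, and of the 25 troughs in 2, RPS8B and GASA14.

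Among the peaks beyond these 12, named after their values were seen, were the catalase CAT2 (LOC112031913, contrast 0.75, adjusted p = 0.0493) and the oxidosqualene cyclase CAMS1 (LOC112000640, contrast 1.09, adjusted p = 0.0423). The transcription factor MYB62 (LOC112040952), which acts in the phosphate starvation response of Arabidopsis, had 8.64, 8.8 and 8.84 in June, 5.58 to 6.21 in April and 7.72 to 8.63 in July, a contrast of 1.8 (adjusted p = 0.0261). Its July trees reached up to the June values. Another MYB62 locus is among the April candidates of the study, which found it lower in June and in July than in April. Of the 27 called loci that rose in June with overlapping ranges, all 27 were also called higher in July than in April.

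Cell division genes lay low in June without passing the adjusted test. Of 53 cell cycle members tested, 0 were called in limma at an adjusted p of at most 0.05 in either direction. Over all loci, 0.129% were called lower and 0.383% higher. At an unadjusted p under 0.05, 32 members (60.4%, against 7.5% of all loci) had a negative contrast and 0 (against 8.63%) a positive one. The median contrast was -0.53. The June trees lay below all others in 8 members (15.1%, against 1.75% of all loci) and above them in 0 (against 2.08%). The list means were -0.6, -0.31 and -0.23 in June, 0.29, 0.14, 0.3 and 0.03 in April and 0.12, 0.04, 0.23 and -0.03 in July, so all 3 June means lay below the other 8. Without April replicate 2, 7 members were called lower, and without both it and July replicate 4, 11 were, against 1.92% and 3.51% of all loci.

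By role, B-type cyclins, which drive entry into mitosis, had the lowest median contrast, -0.88 over 9 loci, and mitosis and cytokinesis genes had -0.65 over 11. A-type cyclins had -0.53 over 7 and the replication genes of the MCM and PCNA group -0.46 over 11. D-type cyclins, which act in the first gap phase, had -0.37 over 9. B-type kinases had -0.67 and A-type kinases -0.09, over 3 loci each. Averaged by role, the June trees lay below the other 8 only in D-type cyclins and in mitosis and cytokinesis genes. In B-type cyclins June replicate 2 (-0.16) lay above July replicate 2 (-0.25). CYCD3;1 (LOC112022222) had 8.17, 7.7 and 7.9 in June, 9.73, 9.59, 9.42 and 9.23 in April and 9.98, 8.73, 9.15 and 8.45 in July, a contrast of -1.36 that missed the threshold (SE 0.28, adjusted p = 0.0637). CYCB1;3 (LOC112030811), also named after its values were seen, had 8.1, 9.13 and 8.87 in June, 9.64 to 10 in April and 9.32 to 10.06 in July, a contrast of -1.02 (SE 0.22, adjusted p = 0.0722). The members with the highest rlog were CDKA;1 (LOC112012085, contrast -0.09), the cell cycle kinase present throughout the cycle, MCM2 (LOC111999780, -0.64) and MCM4 (LOC112027052, -0.35).

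Histones had a median contrast of -0.46 over 32 loci, with 0 called. At an unadjusted p under 0.05, 15 (46.9%, against 7.5% of all loci) were negative. Their list means overlapped, at -0.5, -0.31 and -0.12 in June, against -0.15 to 0.25 in April and 0.03 to 0.37 in July. The 3 with the highest rlog, with contrasts of -0.16 and 0.21 for a pair of H2B loci (LOC111988695 and LOC111988664) and 0.34 for an H4 locus (LOC112015838), did not follow the median. The phellogen candidates that the study chose on these same trees for April had a median of -0.7 over 31 loci, and their choice is not independent of their direction. Of these, 1 was called (3.23%, against 0.129% of all loci called lower). It was the histone chaperone NRP2 (LOC111996871), with a contrast of -1.07 (SE 0.19, adjusted p = 0.0488) and June overlapping July.

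The phellogen candidates with the highest rlog had contrasts of -1.08 for ANT (LOC111985236, adjusted p = 0.114), -0.53 for ULT1 (LOC112024131, adjusted p = 0.0677) and -0.45 for BP (LOC112015571, adjusted p = 0.258). WOX4 (LOC111988759), a cambium regulator and a marker of the phellogen here, had 10.72, 10.51 and 10.87 in June, 11.63, 12.23, 11.67 and 11.49 in April and 11.27, 11.6, 10.96 and 10.88 in July, with June just below July (contrast -0.77, SE 0.19, adjusted p = 0.0909). The summed linear level of 4 phellogen markers was 8050 to 9120 in June, 17100 to 25000 in April and 7670 to 15600 in July, and that of 14 phellem marker loci 1550000 to 1820000 in June, 855000 to 1610000 in April and 1040000 to 1290000 in July. The phellogen sums of June were all below April and inside the July range, and the phellem sums of June were above July and partly above April. Their part in the cell cycle, histone and ribosomal protein values was not tested.

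**Figure D4:**
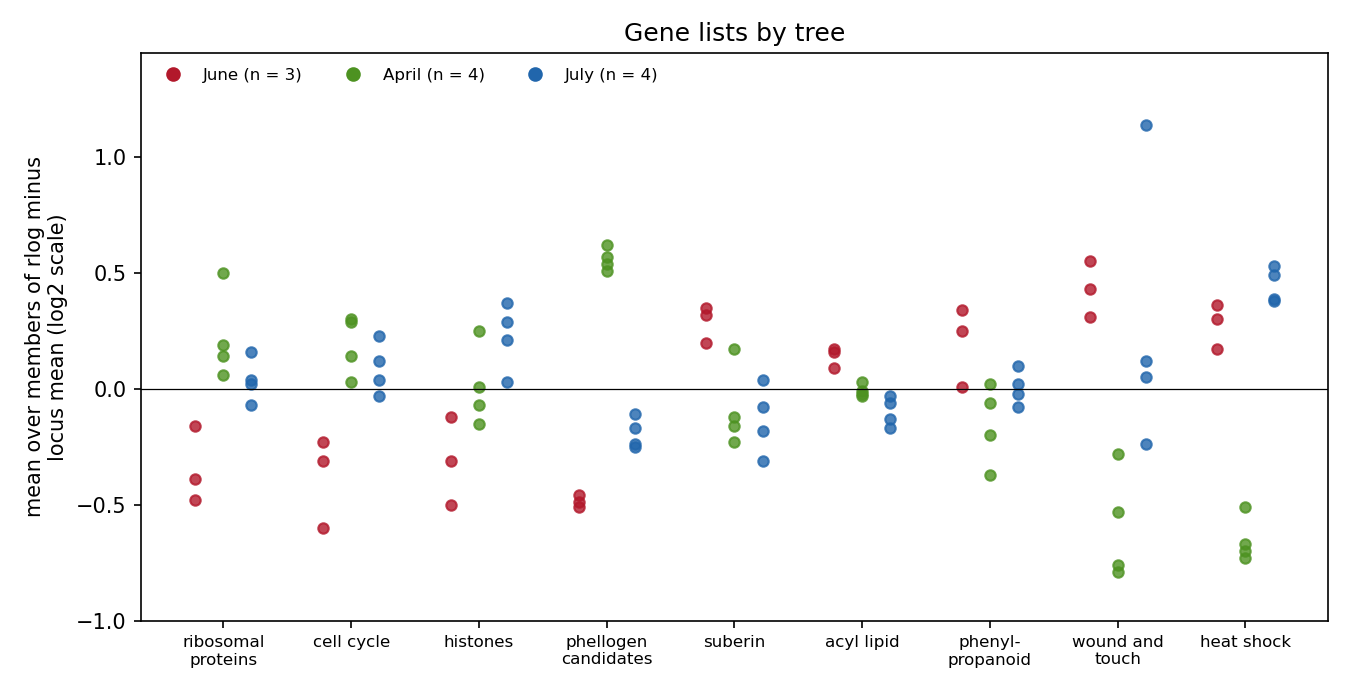
Mean over the members of a list of rlog minus the locus mean (vertical axis, log2 scale), 1 point per tree, for 9 lists, with June left, April centre and July right. The June trees lie below the other 8 for ribosomal proteins, cell cycle genes and phellogen candidates and above them for suberin and acyl lipid genes, and the 3 June trees overlap other months in the remaining 4.

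Suberin genes lay on the other side. Of 39 tested, 0 were called, against 0.383% of all loci called higher and 0.129% lower. At an unadjusted p under 0.05, 15 (38.5%, against 8.63% of all loci) had a positive contrast and 2 (5.13%, against 7.5%) a negative one. The median contrast was 0.35, with medians of 0.4 against both April and July, and it was 0.15 under quantile normalization. The list means were 0.32, 0.2 and 0.35 in June, -0.16, 0.17, -0.23 and -0.12 in April and -0.31, -0.08, 0.04 and -0.18 in July, with April replicate 2 the nearest to June. CYP86B1 (LOC112009780), a fatty acid hydroxylase of suberin synthesis, had 18.13, 18.03 and 17.92 in June, 16.6, 17.53, 16.61 and 16.66 in April and 17.44, 17.76, 17.66 and 17.59 in July, a contrast of 0.8 (SE 0.22, adjusted p = 0.12). June was the highest month without overlap, but the test was not passed.

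CYP86A1 (LOC112038977), the related hydroxylase with the highest rlog of the list, had a contrast of 0.8 (SE 0.27, adjusted p = 0.184). ASFT (LOC112007140), which attaches ferulate to suberin, had one of 0.55 (SE 0.21, adjusted p = 0.24). Over the alternative settings the contrasts ran from 0.31 to 0.96 for CYP86A1, 0.34 to 0.93 for CYP86B1 and 0.15 to 0.66 for ASFT. Without April replicate 2, 7 suberin genes were called higher and 2 lower, while calls over all loci rose to 2.6% higher and 1.92% lower. The remaining April trees sat lower for CYP86B1, at 16.6 to 16.66.

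Of the 146 acyl lipid candidates of the study, 4 (2.74%) were called higher in June and 0 lower, against 0.383% of all loci called higher. They were a plastid malonyltransferase (MCMT, LOC112000442), which primes fatty acid synthesis, with 14.11, 14.17 and 14.1 in June, 13.11 to 13.65 in April and 13.42 to 13.47 in July (contrast 0.7, SE 0.11, adjusted p = 0.0423), and a lipoate synthase (LOC112020652), which makes a cofactor of the plastid pyruvate dehydrogenase, with a contrast of 0.52 (SE 0.09, adjusted p = 0.0429). The others were the transporter ABCG23 (LOC111988868), with 14.25, 14.4 and 14.13 in June, 13.47 to 13.65 in April and 13.34 to 13.76 in July (contrast 0.67, SE 0.11, adjusted p = 0.0424), and a GMC oxidoreductase (LOC112037246), with a contrast of 1.33 (SE 0.23, adjusted p = 0.0424). All 4 were June-only peaks. None of the list was called when any one June tree, April replicate 1, April replicate 4, July replicate 2 or July replicate 3 was left out, or with the replicate number as a block. In the first 3 of these peaks, July and April did not differ by more than 0.06 in their means.

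The list had a median contrast of 0.2, of 0.12 under quantile normalization. At an unadjusted p under 0.05, 41 members (28.1%, against 8.63% of all loci) were positive and 4 (2.74%, against 7.5%) negative. Its means were 0.17, 0.16 and 0.09 in June, -0.03 to 0.03 in April and -0.17 to -0.03 in July. Among the members with the highest rlog, the long-chain acyl-CoA synthetase LACS2 (LOC111993942) had a contrast of 0.5 (SE 0.16, adjusted p = 0.169) with June above all other trees. The acyl carrier protein ACP4 (LOC111987702) had one of 0.4 (adjusted p = 0.291) and a caffeoyl-CoA methyltransferase (LOC111992262) one of 0.19 (adjusted p = 0.67). Over the alternative settings LACS2 ran from 0.15 to 0.56 and ACP4 from 0.06 to 0.51.

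The other lists gave few calls. In the heat shock list, 2 of 79, against 0.383% of all loci, rose by the June contrast, HSP70 (LOC111985979, contrast 1.05, adjusted p = 0.0422) and HSP70B (LOC112025119, contrast 1.44, adjusted p = 0.0493), but June minus July was -0.34 and -0.51 in them, so neither was a peak. Without any one June tree, 0 of the list were called. HSP70B had 11.45, 11.79 and 11.36 in June, 7.22 to 8.58 in April and 11.88 to 12.38 in July. Those of the list with the highest rlog were HSP17.6C (LOC112002958, contrast 1.01, adjusted p = 0.188), HSC70-1 (LOC112017273, contrast 0, adjusted p = 0.998) and another HSP70 locus (LOC112030791, contrast 0.29, adjusted p = 0.424). Of the cell wall genes that the study chose for July on these trees, 1 of 23 rose (4.35%, against 0.383% of all loci). It was a glycosyltransferase (LOC112014189, contrast 1.12, adjusted p = 0.0424). Its June minus July was 0.3 and the June and July ranges overlapped, so it was not a June-only peak. Laccase 14 (LOC112039873) and IRX12 (LOC112018093) had contrasts of -0.5 and -0.21.

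No member was called by limma in the other 11 lists, where 0 to 10 members of a list were positive and 0 to 6 negative at an unadjusted p under 0.05. Over all loci the shares by that measure were 8.63% positive and 7.5% negative. The wound and touch list had a median contrast of 0.44 over 26 loci, with 6 (23.1%) positive and 0 negative at an unadjusted p under 0.05. AOS (LOC111993945), the allene oxide synthase of jasmonate synthesis, named after its values were seen, had 11.88, 11.64 and 11.6 in June, 6.72, 8.12, 10.21 and 7.33 in April and 11.19, 10.9, 10.54 and 11.42 in July (contrast 2.16, SE 0.58, adjusted p = 0.107). Those with the highest rlog were JAZ1 (LOC112038919, 0.38, adjusted p = 0.0972), SZF2 (LOC112011943, 0.58) and WRKY33 (LOC112000434, 0.25).

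The phenylpropanoid list, which feeds lignin and the phenolics of suberin, had a median contrast of 0.3 over 35 loci. By the same measure 10 (28.6%, against 8.63% of all loci) were positive and 0 (against 7.5%) negative. Its leading members were CCOAOMT1 (LOC111992262, 0.19), PAL2 (LOC112009271, 0.48) and C4H (LOC112005113, 0.5). The abscisic acid and drought list had a median of 0.08 with COR47 (LOC112012617, 0.32), GOLS2 (LOC112026042, 1.19, adjusted p = 0.11) and HAB1 (LOC112003464, 0.3), the sterol and triterpene list 0.14 with HMGR1 (LOC112003066, 0.61, adjusted p = 0.0767), CAS1 (LOC112005545, -0.02) and HMGS (LOC112003815, 0.22), and the flavonoid list -0.18 with CHS (LOC112025740, -0.1), F3H (LOC112035407, 0.06) and LDOX (LOC111989281, -0.18). None of these named loci passed the test.

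Medians were 0.16 in the secondary wall list, led by LAC4 (LOC112003315, -0.19), GUX2 (LOC112024128, 0.17) and IRX15L (LOC111995756, 0.54), and -0.01 in the primary wall list, led by KOR1 (LOC112027607, 0.33), EXPA8 (LOC112019461, 0.52) and EXPA4 (LOC112017318, -0.02). The morning clock had 0.02, with PRR7 (LOC112015800, -0.06), LHY (LOC112036661, 0.38) and RVE1 (LOC111984846, 0.3), and the evening clock -0.29, with ZTL (LOC112017148, 0.31), ELF3 (LOC112003864, 0.29) and PRR5 (LOC112022513, -0.17). The list means of June overlapped those of other months in all 4.

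Of the markers of tissues that a cork plank might also hold, most loci missed the minimum level, but a phloem locus was high. Of 19 photosynthesis loci 6 reached the minimum level, led by RBCS3B (LOC112025335, contrast 0.03) and a pair of Rubisco activase loci (LOC112036106, 0.58, and LOC112036117, 0.12), and their summed linear level was 5460 to 6280 in June, 3930 to 5630 in April and 4300 to 5850 in July. The mean of these 6 loci, each centred on its own mean, was 0.18, 0.14 and 0.08 in June, -0.23, -0.02, -0.02 and -0.06 in April and -0.13, 0.06, -0.07 and 0.06 in July. The June trees lay above the other 8 in it, as in the suberin and acyl lipid lists, and its part in those was not tested. Of 22 phloem loci 10 reached the minimum level. Their sum, most of it SEOR1 (LOC111994151, mean rlog 13.58), was 19700 to 30600 in June, 5450 to 14000 in April and 6610 to 29300 in July. The June phloem sums were thus all above April and overlapped July. SEOR1, a sieve element protein, had contrasts of 1.04 (adjusted p = 0.272) for this locus and 1.86 (SE 1.21) for LOC112027469, and PP2-A1 (LOC112030888) one of -0.74 (SE 1.17). Of 3 xylem markers, XCP1 (LOC112002930) reached the minimum level, with a mean rlog of 4.99, and VND6 and VND7 had mean rlog values of -1.94 and -1.68. The xylem sum was 10.6 to 467 in June, 7.93 to 231 in April and 9.91 to 226 in July. The part of phloem in the peaks was not tested.

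How many loci were called rested on single trees. Leaving out any June tree left 0 or 1 locus higher and 1 or 2 lower at an adjusted p of at most 0.05. Leaving out April replicate 2 raised the counts to 430 lower and 583 higher, and leaving out July replicate 4 gave 42 lower and 104 higher. Of the other April trees, leaving out replicate 1 gave 2 lower and 8 higher, replicate 3 gave 13 lower and 38 higher, and replicate 4 gave 3 lower and 4 higher. Of the July trees, replicate 2 gave 3 lower and 7 higher, replicate 3 gave 9 lower and 31 higher, and replicate 1 gave 26 lower and 60 higher. All 29 and 86 loci were called again without April replicate 2, and the ribosomal protein list then had 49 members called lower, against 1.92% of all loci.

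**Figure D5:**
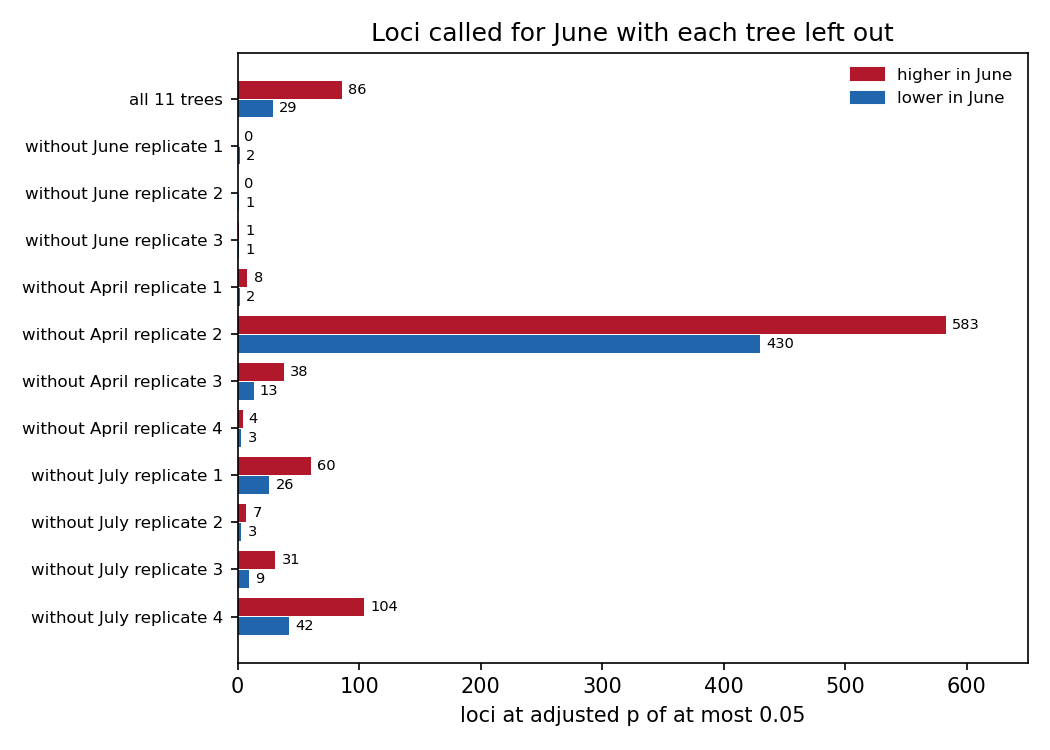
Number of loci (horizontal axis) called higher (red) and lower (blue) in June at an adjusted p of at most 0.05 with all 11 trees and with each tree left out. The counts range between 0 and 583 higher and between 1 and 430 lower, with the most calls when April replicate 2 is left out.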

How the data were processed

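RNA-seq of innercork from 11 cork oaks was analysed from the values that the authors deposited, which are rlog values of DESeq2 on the log2 scale. Per the labels and the study's methods, they checked reads with FastQC 0.11.5, trimmed adapters, removed ribosomal reads, aligned what remained with STAR 2.5.3a to CorkOak1.0 and matched loci to Arabidopsis by BLASTP. Where a locus had several Arabidopsis identifiers (941 loci), the first was used. Counts cannot be recovered from rlog, so library depths were not used here and no count model was fitted.

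limma 3.58.1 in R 4.3.3 fitted the month as a factor over all 11 trees, with a variance trend (2.38 prior degrees of freedom), to 22426 loci, those whose rlog averaged log2 of 10 or more. The contrast was June minus the average of the April and July means, with Benjamini-Hochberg adjustment over these loci. The same fit gave June/April, June/July and July/April. The fit was tested on simulated data. The median residual SD was 0.3 and the median SE of the June contrast 0.2, both on the log2 scale.

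The comparison, the 19 gene lists and the thresholds were chosen with earlier results of these data known. Lists were described by counts and medians, with no test of a list. Named loci were, per direction, the 12 June-only loci with the largest smaller difference, filled with loci that met an adjusted p of 0.05 but missed the study's threshold (11 of the 12 troughs and all peaks), and the 3 members of each list with the highest mean rlog. RefSeq's Cork oak 2.0 gene table, another assembly than the files', matched 100 of the 115 called loci. For these it gave biotypes and, by gene order and start positions, neighbours. The RPS8B locus LOC112022594 and those of GASA14, ORC6, BGAL1 and EP3 were among the loci not matched. Alternatives were other minimum levels, a pseudocount of 1, other scalings, the variance prior, tree weights, the model, the replicate number as a block, thresholds and leaving out trees.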

Additional observations from a re-analysis of the deposited data

Results flagged for a closer look

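Each of 99 loci and list means was checked in April and again in July for 1 tree far from the other 3. Such a tree was found in 8 of the 99 in April and 5 of the 99 in July. Chance flags about 1 in 20 groups, so the July count was near that share and the April count somewhat above it. None of the flagged items was a June-only trough or peak among the 24 named. April replicate 2 stood apart in 6: it was high in HSP70 (LOC112030791) at 15.01, with the other April trees at 14.42 to 14.45, in LDOX (LOC111989281) at 15.97 against 15.24 to 15.28, and in WRKY33 (LOC112000434) at 10.84 against 10.18 to 10.29. It was also high in RPL10A (LOC112005106) at 14.89 against 14.17 to 14.2, in RPS27aB (LOC112034014) at 14.73 against 13.9 to 13.92, and in CYP86B1 (LOC112009780) at 17.53 against 16.6 to 16.66. The other April values were HMGS (LOC112003815) at 13.9 in replicate 3, against 14.59 to 14.69, and SEOR1 (LOC112027469) at 5.8 in replicate 4, against 10.06 to 10.38.

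In July, replicate 4 was low in MCM2 (LOC111999780) at 9.96, against 10.76 to 10.82, and in LAC4 (LOC112003315) at 12.51, against 13.39 to 13.57, and high in SZF2 (LOC112011943) at 12.34, against 10.6 to 10.72. July replicate 1 was low in EXPA8 (LOC112019461) at 14.43, against 14.96 to 15.05, and high in CAS1 (LOC112005545) at 15.57, against 14.62 to 14.69.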

How the results depend on the processing

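The number of calls moved with the trees and the model, and the cause was not tested. All 115 loci kept the sign of their contrast under every alternative that tested them, but they were chosen for a contrast large against its error, so this is a description only. At the thresholds of the study, 1 locus was lower and 0 higher. Higher calls were 2 with a minimum of log2 of 100 (2 of them June-only peaks), 1 with no variance trend (1 a peak), 29 with weights per tree (20 peaks), 2 without both April replicate 2 and July replicate 4 (2 peaks), 48 at an adjusted p of at most 0.05 with a contrast above 1 (30 peaks) and 86 with no minimum contrast (59 peaks). Lower calls were 7 with weights per tree (7 June-only troughs), 2 without both trees (2 troughs), 9 at 0.05 with a contrast below -1 (7 troughs) and 29 with no minimum (25 troughs). Leaving out 1 tree at a time gave 0 to 6 higher (0 to 5 peaks) and 0 to 5 lower (0 to 5 troughs).

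At an adjusted p of at most 0.05, with 86 higher (59 peaks) and 29 lower (25 troughs), leaving out 1 tree gave 0 to 583 higher (0 to 294 peaks) and 1 to 430 lower (1 to 187 troughs). Weights per tree, of which the lowest were 0.26 for April replicate 2 and 0.397 for July replicate 4, called 944 higher (326 peaks) and 687 lower (239 troughs), and leaving out both trees 977 (538) and 787 (376). With no minimum level the counts were 24 (20) and 6 (5), and with a minimum of log2 of 100 56 lower (44). Quantile normalization called 73 lower (61). With 2 groups only, where the difference between April and July stays in the residual spread, 0 (0) and 1 (1) were left, and by the larger p of June/April and June/July 0 peaks and 1 trough. With a minimum contrast of 1 there were 48 higher (30) and 9 lower (7). Of the June-only loci, July/April called 26 to 34 peaks higher and 9 to 17 troughs lower when 1 tree was left out, against 34 and 17 with all trees.

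The replicate numbers only name the trees: deviations of same-numbered trees in 10 pairs correlated between -0.08 and 0.21, and 4 of 11 trees correlated best with their own number. With the title number as a replicate block, 4 loci were higher (4 peaks) and 1 lower (1 trough) at 0.05 and 0 lower (0 troughs) at the study's thresholds, and with the numbers of the library names 0 (0) and 0 (0), and again 0 (0) at the stricter ones, where the RPS8B locus had an adjusted p of 0.063. With the title block, 31 peaks were higher and 14 troughs lower in July than in April.

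Uncalled loci near 0 changed sign. Under quantile normalization HSC70-1 had -0.24, CCOAOMT1 -0.18, F3H -0.29, HMGS -0.04 and RBCS3B -0.06. With the title block the values were -0.07 for HSC70-1, 0.01 for CHS, -0.01 for F3H, 0.02 for CAS1 and -0.01 for RBCS3B, and with the library-name block 0.2 for EXPA4 and 0.01 for LDOX. Median centring gave 0.03 for EXPA4 and 0.02 for CAS1, and EXPA4 had 0.05 with weights per tree and 0.05 without both trees. With 1 tree, or both of these trees, left out the ranges were -0.27 to 0.08 for PRR7, -0.09 to 0.08 for HSC70-1, -0.09 to 0.12 for EXPA4, -0.46 to 0.06 for CHS, -0.01 to 0.19 for F3H, -0.46 to 0.22 for CAS1, -0.15 to 0.19 for RBCS3B, -1.78 to 0.67 for PP2-A1 and -0.52 to 0.03 for IRX12. What depth limits was not assessed, since library depths were not used here.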
